A study of Homo sapiens with 3 samples.

Results

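DICER1 encodes DICER, and its own transcript was among the RNAs recovered with the tagged protein. The DICER1 transcript was defined here as every cluster whose same-strand annotation in the files named the gene DICER1. A cluster is a stretch of overlapping reads with T-to-C changes, called by the authors. The rule gave 33 of 11577 clusters in replicate 1, 42 of 18065 in replicate 2 and 9 of 5099 in replicate 3, or 84 of 34741 in the replicate lists together. It also gave 36 of 8469 clusters in a series-wide list, whose clusters each carry a library support of 2 or 3, read here as the number of replicates with reads. DICER1 was chosen by its number of clusters, its conversions and its coding share in these same lists, so its counts, region and levels are descriptions and were not tested.

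The samples were 3 replicates of 1 group, Flp-In HEK293 T-Rex cells carrying FLAG-tagged DICER, an established human embryonic kidney line. In PAR-CLIP a photoreactive uridine analogue is built into RNA, ultraviolet light links it to the bound protein, and reverse transcription then turns the linked base into a T-to-C change in the reads. The replicates were prepared with RNase T1, as the labels give it. No control without the tagged protein and no second genotype was analysed here. The sources used here do not say whether the replicates were separate cultures, so the spread between them may be technical. The promoter of the transgene, its induction, and whether it held the untranslated regions or introns of DICER1 are likewise not given. The cells could hold DICER1 RNA from the endogenous gene and from the transgene. Reads of a coding sequence align to the same genomic exons from either source, and the 2 sources cannot be told apart in these lists. Nor can the number of DICER1 transcripts be told apart from the protein bound per transcript.

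DICER is an RNase III enzyme of the cytoplasm. It trims the hairpins of precursor miRNAs and long double-stranded RNA down to short duplexes, which are then loaded onto Argonaute proteins. From its amino end it carries a helicase region, a platform and PAZ domain that hold the end of the hairpin, a pair of RNase III domains that each cut 1 strand, and a domain that binds double-stranded RNA. The endogenous mRNA has a long 3' untranslated region and is a known target of the let-7 miRNAs, which DICER itself makes.

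The lists held 1306125, 1060791 and 595487 T-to-C conversions in replicates 1, 2 and 3, and reads were repeated 18.6, 17.8 and 33.8 times per distinct read. Of 9 genes often reported as expressed in HEK293 cells, 6 had an exon cluster in some replicate, while NEFM, LHX1 and KRT18 had none in any. Of those 6, LIN28B and VIM had one in all 3, against 15.1% of 6683 mRNA genes with an exon cluster in any replicate. Of 15 genes typical of other cell types, 13 had none, MBP had 1 cluster in replicate 2, and the muscle gene CKM had 1 in each replicate. The share of all genes with an exon cluster in any replicate is not given here. Nothing about the cell type is therefore read from the 6 of 9 or the 13 of 15. CKM had 183, 14 and 15 conversions in replicates 1, 2 and 3. LIN28B had 100, 20 and 28, and VIM had 1, 27 and 24.

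The mean number of DICER1 exon clusters was 28 ± 17.1 (SD, n = 3). Replicates 1, 2 and 3 held 2371, 1634 and 389 DICER1 conversions from 2509, 1811 and 389 reads. Replicates 1 and 2 were both well above replicate 3 in each of these counts. As a share of the conversions in all mRNA exon clusters, DICER1 held 1.59%, 2.1% and 0.815%, which averaged 1.5% ± 0.647 (SD, n = 3). Among clusters with at least 3 distinct reads the mean share was 2.58%. As a share of mRNA exon clusters DICER1 held 0.468%, 0.505% and 0.443%, which differed little between replicates. Among the 4030 genes with an exon cluster in replicate 1 and the 5050 in replicate 2, it ranked 1 by conversions, and in replicate 3 it ranked 2 of 1853 after PFN1, which encodes the actin-binding protein profilin and had 469. The median gene had 1 cluster in each list.

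Clusters lay in the coding sequence alone for 32 of 33, 41 of 42 and 9 of 9 DICER1 clusters, or 98.2% ± 1.60 (SD, n = 3). In other mRNAs the coding sequence alone held 27.7%, 26.7% and 26.8% of exon clusters in replicates 1, 2 and 3, and 23.5% in the series-wide list. This contrast is the one for which the gene was chosen, and nothing is read from it. None of the 84 clusters reached into an intron of the 27-exon RefSeq transcript that the files use (NM_177438). None was annotated to the 3' untranslated region. If the clusters were independent, a count of 0 would allow up to 9.09%, 7.14% and 33.3% of clusters in replicates 1, 2 and 3. Clusters of 1 transcript are not independent, and the gene was chosen for its coding share, so nothing is read from these limits. In all, 2 clusters in replicate 1 and 2 in replicate 2 also overlapped an intron of a different annotated DICER1 transcript.

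High coding shares were not limited to DICER1, although they were rare among genes with 5 or more exon clusters. The median coding share was 20% over the other 255 such genes in replicate 1 and 16.7% over the other 240 in replicate 2. In each of these replicates, 2 of them were at or above the share of DICER1, namely IRS4 and RP11-473I1.9 in replicate 1 and IRS4 and PLK1 in replicate 2. IRS4, which encodes an insulin receptor substrate, had 17 of 17 exon clusters in the coding sequence alone in replicate 1 and 6 of 6 in replicate 2, and it had no exon cluster in replicate 3. EEF2, the translation elongation factor, had 19 of 23, 9 of 12 and 4 of 4 in replicates 1, 2 and 3. MAZ, a zinc finger transcription factor, had 10 of 18, 6 of 12 and 1 of 4. These 3 genes had the most coding-sequence clusters after DICER1 in the series-wide list, where EEF2 had 9, IRS4 had 7 and MAZ had 7, against 34 for DICER1.

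**Figure D1:**
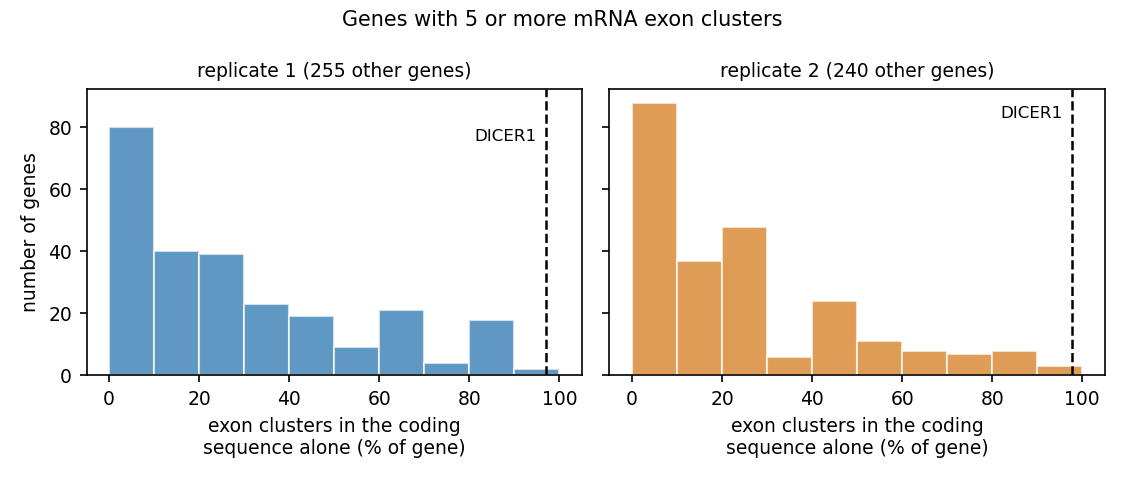
Histograms of the share of each gene's exon clusters that lay in the coding sequence alone (x axis, percent), with the number of genes on the y axis, for genes with 5 or more exon clusters in replicates 1 and 2. The dashed line marks DICER1 at 97.0% and 97.6%, and the medians of the other 255 and 240 genes were 20% and 16.7%.

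Clusters were spread along the coding sequence from exon 2 to exon 25, with a weighting toward exon 2 and toward exons 21 to 23. Exon numbers follow that RefSeq transcript, and since DICER1 lies on the minus strand, the 5' end has the highest coordinate. Of the 27 exons, 20 had a cluster in some replicate, and replicates 1, 2 and 3 covered 20, 18 and 6 exons. The exons covered in every replicate were 2, 8, 16, 21, 22 and 24, and 12 further exons had a cluster in 2 replicates. Exons 9 and 25 were covered in replicate 1 alone. In exon 8, replicates 1 and 2 shared a site and replicates 2 and 3 shared another, and no site had clusters of all 3. Exons 1, 3, 14, 17, 19, 26 and 27 had none in any replicate. Exon lengths of the files' build were not used here, so a short exon and a weakly bound one are not separated by these counts.

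**Figure D2:**
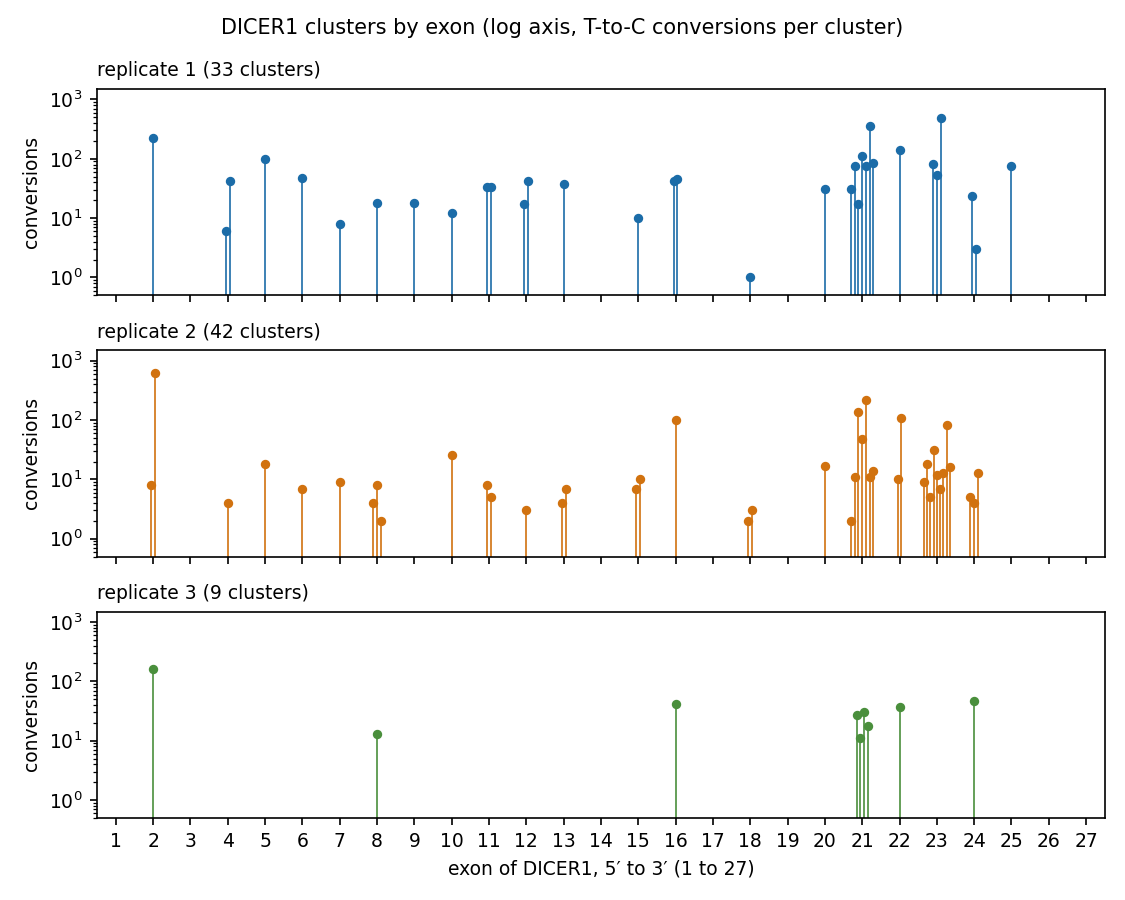
T-to-C conversions of each DICER1 cluster (y axis, log scale) by exon of the transcript (x axis, exon 1 to 27 from 5′ to 3′) in the 3 replicates. Each point is 1 cluster, with the clusters of an exon drawn side by side in 5′ to 3′ order. Exon 2 has a high point in every replicate and exon 21 has 7, 7 and 4 clusters.

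Exon 2 had 223, 621 and 163 conversions in replicates 1, 2 and 3, which was 9.41%, 38.0% and 41.9% of all DICER1 conversions. Its share was thus lower in replicate 1 than in the other replicates. Exon 21 had 747, 436 and 87 conversions in 7, 7 and 4 clusters, or 31.5%, 26.7% and 22.4%, which averaged 26.9% ± 4.57 (SD, n = 3). Its share varied less between replicates than that of exon 2, and by distinct reads it was 27.6% ± 2.70 (SD, n = 3). Exon 22 had 138, 120 and 37 conversions, or 7.56% ± 1.86 (SD, n = 3). Exon 23 had 613 conversions in 3 clusters in replicate 1, 192 in 9 clusters in replicate 2 and no cluster in replicate 3. Exons 21 to 23 together held 63.2%, 45.8% and 31.9% of DICER1 conversions and 34 of the 84 clusters.

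The stretch just after exon 2 had many clusters with few conversions in replicates 1 and 2. Exons 3 to 15, most of which had 1 or 2 clusters in replicates 1 and 2, held 30 of the 84 clusters but 18.1%, 7.47% and 3.34% of conversions. In replicate 3 the whole stretch had 1 cluster, in exon 8, with 13 conversions. Exons 16 to 20 held 9 clusters with 5.06%, 7.41% and 10.8% of conversions. Exons 24 to 27 held 7 clusters with 4.30%, 1.35% and 12.1%.

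Overlapping clusters of the 3 replicates, joined at a same-strand overlap of 1 nt or more, formed 45 separate sites on DICER1. Of these sites, 6 were covered in every replicate, 18 in 2 of them and 21 in 1. The sites in 2 replicates were 17 of replicates 1 and 2, 1 of replicates 2 and 3 and 0 of replicates 1 and 3. Replicate 1 alone had 8 sites, replicate 2 alone had 13 and replicate 3 alone had none. The 6 sites of all 3 replicates held 42.0%, 74.5% and 96.7% of DICER1 conversions in replicates 1, 2 and 3. Without replicate 3, 23 sites were shared by both remaining replicates, and with at least 3 distinct reads required, 2 sites were shared by all 3. With an overlap of 50% of the shorter cluster required, 7 sites were shared by all 3. The more 3' site of exon 21, described below, was held together by small overlaps and was 1 site only under the 1 nt rule.

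Of the shared sites, that in exon 2 was the strongest by the mean share of DICER1 conversions, at 29.8% ± 17.7 (SD, n = 3). It lay at hg19 chr14:95599681-95599784 on the minus strand, within the coding sequence, and had 41, 111 and 14 distinct reads in replicates 1, 2 and 3. The central position that the files give for each cluster was 95599714 in all 3 replicates. Where a site held several clusters of a replicate, that of its cluster with the most conversions is given. By distinct reads the share of the exon 2 site was 28.1% ± 14.4 (SD, n = 3), again lowest in replicate 1. Leaving this site out lowered the mean share of DICER1 in mRNA exon conversions from 1.5% to 1.08%, an alternative chosen after seeing the data.

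The sites in exon 21 and exon 22 followed. The more 3' site of exon 21 (chr14:95569735-95569940) had 510, 240 and 49 conversions, or 16.3% ± 4.66 of the transcript's total (SD, n = 3), with 60, 55 and 5 distinct reads. This site joined 3, 3 and 2 clusters of replicates 1, 2 and 3. Its parts were linked by a replicate 2 cluster of 11 conversions (chr14:95569799-95569859), which shared few bases with the replicate 1 clusters on either side. The series-wide list has 2 clusters there, with 620 and 109 conversions. The central position of its strongest cluster was 95569884 in all 3 replicates. The more 5' site of exon 21 (chr14:95570159-95570355) had 76, 135 and 38 conversions, or 7.08% ± 3.44 (SD, n = 3), centred at 95570247 in each replicate. The exon 22 site (chr14:95566125-95566236) had 138, 110 and 37 conversions, or 7.35% ± 1.92 (SD, n = 3), centred at 95566214, 95566214 and 95566211. Of the 6 shared sites, the exon 22 site had the smallest spread in its share.

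The remaining shared sites, in exons 16 and 24, had the lowest mean shares of the 6, at 6.25% and 4.33%. They changed order between replicates. In replicate 3 both had more conversions than the exon 22 site and the more 5' site of exon 21. The exon 16 site (chr14:95574220-95574270) had 45, 99 and 42 conversions with 8, 9 and 2 distinct reads. Its central position was the same in replicates 2 and 3 and lay 18 nt away in replicate 1. The exon 24 site (chr14:95560272-95560331) had 3, 13 and 47 conversions with 2, 5 and 4 distinct reads. It was the weakest of the 6 in replicate 1 and the second strongest single cluster in replicate 3.

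**Figure D3:**
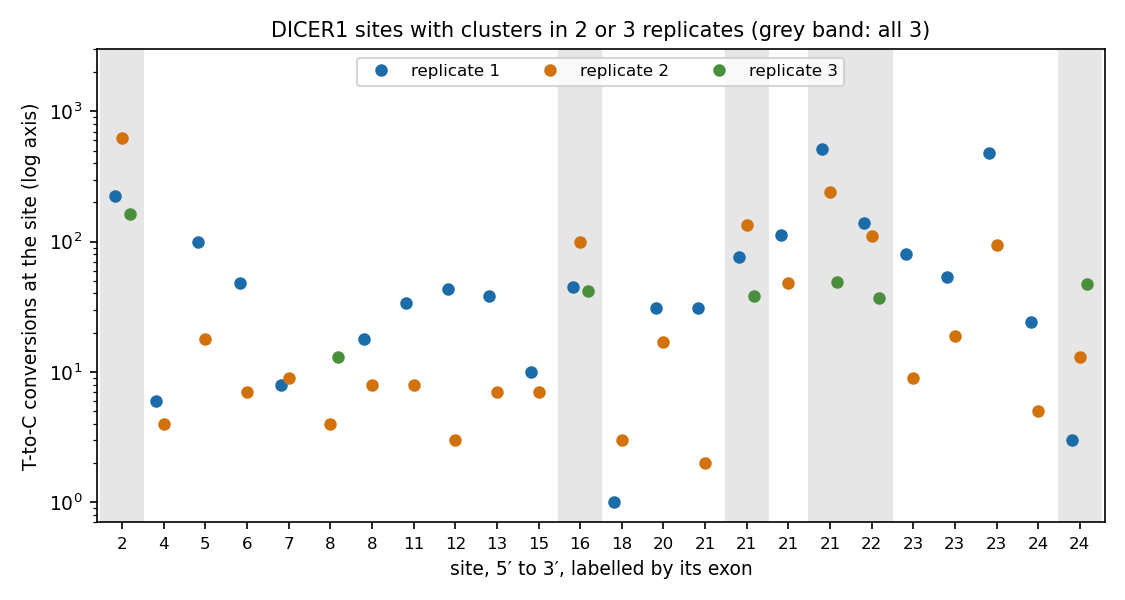
T-to-C conversions in each replicate (y axis, log scale; points coloured by replicate) at the 24 DICER1 sites with clusters in at least 2 replicates, ordered 5′ to 3′ and labelled by exon (x axis). Grey bands mark the 6 sites with clusters in all 3 replicates, in exons 2, 16, 21, 22 and 24. The exon 2 site has 223, 621 and 163 conversions.

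Exon 21 was the exon with the most clusters over the replicates, and some of its clusters repeated at the same places. Counted from the 5'-most covered base of the exon, central positions fell at 202 nt in all 3 replicates and at 565 nt in all 3. A position at 429 nt was shared by replicates 1 and 2, with 113 and 48 conversions and 12 distinct reads in each, and replicate 3 had no cluster there. Near 680 nt the centres were 684, 677 and 680 nt, with 84, 14 and 18 conversions. Other clusters of the exon did not repeat in this way. The replicate 1 cluster centred at 329 nt and the replicate 2 cluster centred at 56 nt overlapped no cluster of another replicate. At the 5' end, clusters of replicates 1 and 2 were centred at 2 and 19 nt, with 31 and 2 conversions. All clusters of the exon covered 380, 417 and 121 nt of a covered span of 755 nt. The large cluster at 565 nt had 351, 215 and 31 conversions and led the exon in each replicate.

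**Figure D4:**
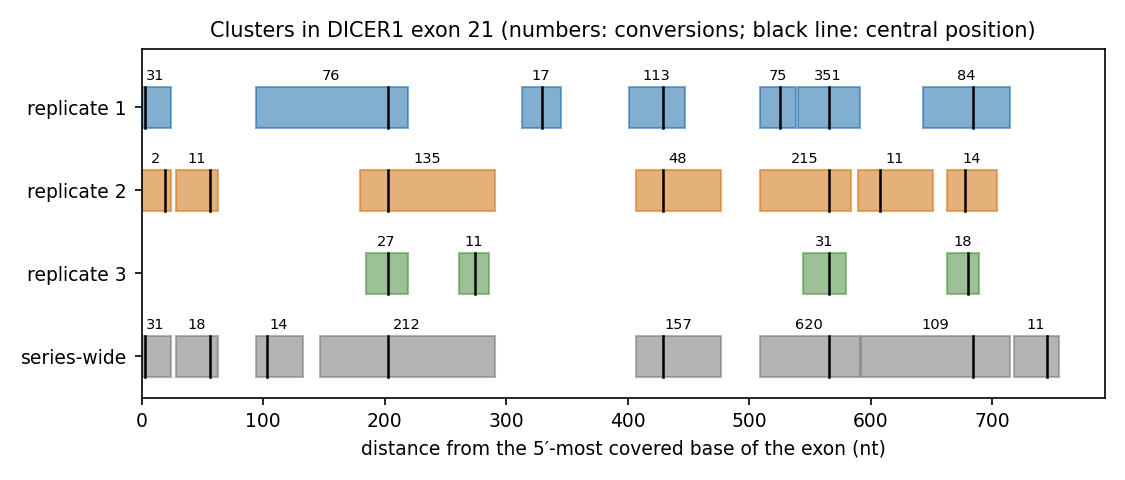
Clusters in exon 21 of DICER1 by distance from the 5′-most covered base of the exon (x axis, nt) in each replicate and in the series-wide list (rows). Bars span each cluster, numbers give its conversions, and black lines mark the central position given in the files, which falls at 202 and 565 nt in every row.

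Exon 23 was the strongest exon with no cluster in replicate 3. Its strongest site (chr14:95562346-95562468) ranked 3 among all sites by mean share and had 478 conversions in replicate 1 and 94 in replicate 2, with 37 and 25 distinct reads and the same central position, 95562382. Replicate 3 had no cluster there. The replicate 3 list had 33 distinct reads on DICER1 in all, against 299 and 395, and with so few reads the absence of a cluster does not show that the site was not bound. Of the 7 sites in exon 23, 3 had clusters in both replicates 1 and 2 and 4 in replicate 2 alone.

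Over the 23 sites with clusters in both replicates 1 and 2, conversions had a Spearman rho of 0.718 and distinct reads one of 0.875. These describe sites of 1 transcript, which share the 2 libraries and their depth. The ratio of conversions in replicate 1 to replicate 2 ran from 0.231 to 15.5 with a median of 2.25, and 17 of the 23 sites had more in replicate 1. By distinct reads 6 sites had more in replicate 1, 9 had more in replicate 2 and 8 had the same number. Most sites were thus higher in replicate 1 by conversions but not by distinct reads.

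Few clusters lay outside the coding sequence alone. The exon 20 site (chr14:95571437-95571497) had 31 conversions in replicate 1 and 17 in replicate 2, centred at 95571483 in both. It is coding in the RefSeq transcript and was also listed in a 5' untranslated region, that of a shorter annotated transcript. The only cluster in the 3' untranslated region alone was in the series-wide list, in exon 27 (chr14:95555552-95555576), with 17 conversions from 2 distinct reads and reads from 2 replicates. It also overlapped an intron of another annotated DICER1 transcript, and no replicate list had a cluster there. The exon 25 cluster of replicate 1 (chr14:95557540-95557656) had 75 conversions, lay in the coding sequence and overlapped an intron of another transcript.

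The series-wide list covered 18 exons of DICER1. Of its 36 DICER1 clusters, 34 lay in the coding sequence alone, and 8 were in exon 21 and 6 in exon 23. Reads came from 3 replicates in 7 of them and from 2 replicates in 29. All 7 overlapped a cluster in each replicate list. In addition, 4 of the 36 overlapped no cluster of any replicate list, with 8 to 17 conversions each. Its values were not sums of the replicates. The exon 2 site had 767 conversions there against 1007 over the replicate lists, and the more 5' of the exon 24 sites had 29 in both.

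DICER1 clusters were longer and had more distinct reads than the coding-sequence clusters of other mRNAs in replicates 1 and 2. Median distinct reads were 6, 4 and 2 in replicates 1, 2 and 3, against 2, 2 and 2 for the 1943, 2213 and 543 coding-sequence clusters of other mRNAs. The median length was 46, 35.5 and 34 nt, against 32, 28 and 27 nt. Median conversions were 43, 9.5 and 31, against 12, 5 and 17. In replicate 3 the distinct reads did not differ in the median, while length and conversions were higher, as in the other replicates. The share of clusters with just 2 distinct reads was 27.3%, 28.6% and 66.7% for DICER1, against 56.4%, 78.1% and 93.0%. The part of transcript abundance in these medians was not tested.

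Conversions and reads were nearly equal in number on DICER1. The conversions equalled the reads in 18 of 33, 28 of 42 and 9 of 9 clusters, so the median was 1 conversion per read in each replicate, as in the coding sequence of other mRNAs. Summed over clusters, DICER1 had 0.945, 0.902 and 1 conversions per read, against 0.858, 0.950 and 0.997 for the others. DICER1 was higher in replicates 1 and 3 and lower in replicate 2. Reads per distinct read were 8.39, 4.58 and 11.8 for DICER1, against 6.61, 3.28 and 9.80. Within a replicate the files count up to 2 sources of reads per cluster, without saying what they are, and both were present in 69.7%, 81.0% and 100% of DICER1 clusters, against 44.4%, 92.9% and 100%.

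A larger share of sites was shared by replicates on DICER1 than in the coding sequence of other mRNAs, a difference that was not tested. In total 6 of 45 sites were shared by all 3 replicates, against 1.87% of 4125 sites in other mRNAs, and 24 of 45 by at least 2, against 11.9%. By clusters, 75.8%, 69.0% and 100% of those on DICER1 in replicates 1, 2 and 3 were at a site of another replicate, against 22.9%, 20.7% and 30%. Among clusters with just 2 distinct reads, 6 of 9, 6 of 12 and 6 of 6 were shared on DICER1, against 15%, 11.5% and 26.7% of those in other mRNAs. Among clusters with 6 or more distinct reads, 14 of 17 and 13 of 15 were shared in replicates 1 and 2, against 66.1% and 81.3%. The gap was thus widest for the thinnest clusters. A transcript on which clusters cover 1817 and 1855 nt in replicates 1 and 2 also meets more overlaps by position alone, and the part of this was not tested.

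Central positions coincided in a smaller share of pairs on DICER1 than elsewhere, a difference that was not tested. Of 46 overlapping pairs of clusters from different replicates, 17 had the same central position, or 37.0%, against 55.1% of 650 pairs in other coding sequences. Both ends were identical in 3 of the 46 pairs, or 6.52%, against 9.08%. Between replicates 1 and 2, which gave 30 of the pairs, both ends were identical in 3 pairs, or 10%, near the 8.52% elsewhere. At least 1 end was identical in 26.7% of these pairs on DICER1, against 38.9%. The same central position was again less frequent, at 30% against 53.3%. Clusters on DICER1 were longer, as given above, and the part of length in this difference was not tested.

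Some DICER1 clusters overlapped conserved secondary structures predicted from alignments, which the files list as evofold elements. They lay in exons 5, 6 and 24 and numbered 2 of 33, 3 of 42 and 1 of 9, or 8.10% ± 2.66 (SD, n = 3). In the coding-sequence clusters of other mRNAs the share was 2.32%, 2.21% and 1.47%. The series-wide list gave 3 of 36 for DICER1, against 3.18%. The DICER1 counts are so small that 1 cluster moves the share by several points in any replicate. The exon 5 site (chr14:95596430-95596481) had 100 and 18 conversions in replicates 1 and 2. The exon 6 site (chr14:95595886-95595955) had 48 and 7. In exon 24 the overlap was at the site shared by all 3 replicates, and the cluster of replicate 1 there, with 3 conversions, was not listed with it.

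The other mRNAs of the small RNA pathway had a coding share close to that of all other mRNAs. Of 23 such genes, 4 had exon clusters in each of the 3 replicates, 12 in 2, 3 in 1 and 4 in none. Among the 19 with a cluster in any replicate, 4 thus had one in all 3, against 15.1% of 6683 mRNA genes. The counts for 2 replicates, 1 or none have no such share beside them here. The most clusters that any of them had in a replicate was 8, for the RNA helicase DDX17 and for AGO2. Over the 3 replicates, 25 of their 92 exon clusters lay in the coding sequence alone, or 27.2%, against 27.1% of the 17326 exon clusters of mRNAs other than DICER1. The 3' untranslated region alone held 55 of the 92, or 59.8%, against 52.0%. DROSHA, the nuclear enzyme that cuts primary miRNA transcripts, had 1 coding-sequence cluster in each replicate with 458, 151 and 169 conversions. In replicate 3 this single cluster had more conversions than any on DICER1. RAN, the GTPase that powers the export of precursor miRNAs, had 5, 6 and 1 clusters, of which 4, 6 and 1 were in the 3' untranslated region alone. LIN28B, which blocks let-7 maturation, had 4, 3 and 2 clusters, and KHSRP, an RNA-binding protein that promotes the processing of some precursors, had 3, 2 and 1. TARBP2 and PRKRA, the double-stranded RNA-binding partners of DICER, had 3 conversions at most in any replicate. XPO5, the exporter of precursor miRNAs, AGO4, LIN28A and DIS3L2 had no exon cluster in any replicate.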

How the data were processed

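Clusters came from 3 FLAG-DICER PAR-CLIP replicates of HEK293 cells. Alignment used Bowtie2 2.1.0 and build hg19, per the submitters' processing notes. The cluster program is named in the files' source field, with no version given there. Per the file attributes, the clusters are listed at an estimated false discovery rate of 5%, and the replicate lists are marked as filtered by length. The value used from the authors' lists is a raw count of conversions in each cluster. The authors' entropy score was not used. Reads, distinct reads, central positions, exons and regions came from the authors' attribute text. Replicate lists give up to 2 sources of reads for a cluster.

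An mRNA exon cluster had an exon with a coding or untranslated region and no annotation as rRNA, tRNA, miRNA, snoRNA, snRNA, another structured small RNA or mitochondrial RNA. Shares were taken of each list's total, which is not the sequencing depth. Intervals and floors cover counting error only. Sites were joined at 1 nt of same-strand overlap, and the code for this was checked on 200 simulated sets, of which 100% were recovered. That check covers the code at 1 nt alone and does not show that joined clusters are 1 place of binding. Named were DICER1, its sites with clusters in all 3 replicates, its 5 strongest sites, clusters outside the coding sequence, small RNA genes seen in every replicate and the 3 other mRNAs with the most coding-sequence clusters. The other genes named (PFN1, RP11-473I1.9, PLK1, DDX17, AGO2, TARBP2, PRKRA and those with no cluster) and the evofold, exon 25 and shared-end comparisons were chosen after their values were seen. Members and lists were chosen with earlier results of these data known. No test was made, since 1 group of 3 replicates was chosen for these values. Clusters per kb of coding length were planned, but coding lengths were not used here. No site sequence is printed, because no genome of the files' build was used here. Alternatives left out each replicate, or asked for 3 distinct reads, median conversions or 50% overlap, and 3 chosen after seeing the data asked for both read sources or left out the exon 2 site. Python 3.11.15, numpy 2.4.6 and pandas 2.3.3 were used.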

Additional observations from a re-analysis of the deposited data

Results flagged for a closer look

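A cluster on the opposite strand of DICER1, outside the clusters described above, had 50 conversions in replicate 1, above the 3 that a count of 0 allows. It lay in the first exon of the antisense noncoding gene DICER1-AS1 (hg19 chr14:95624054-95624083, plus strand), with 54 reads and 9 distinct reads from both read sources. Replicates 2 and 3 and the series-wide list had no cluster there. The limit of 3 holds for independent events, which repeated reads are not, so it served only to flag the cluster. The other cluster opposite DICER1, in replicate 2 (chr14:95562176-95562197), had 3 conversions and no gene on its own strand.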

How the results depend on the processing

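Of 36 alternatives over 6 results, 31 stayed within 1 SD over replicates, or within 1.5 times for a count. Leaving out 1 of 3 replicates cannot move a mean by 1 SD. For the results judged by SD, those alternatives therefore had to stay within it and are no check. The 6 sites shared by all 3 replicates became 2 with at least 3 distinct reads, and leaving out 1 replicate gave 7 to 23 sites shared by the other two, with 23 without replicate 3. The mean share of mRNA exon conversions was 1.5% and became 2.58% with at least 3 distinct reads, and it was 1.2% to 1.84% with 1 replicate left out. Counting the exon 20 clusters as coding raised the coding share from 98.2% to 100%. Conversions per read were 0.949 by sums and 1 by medians. The mean number of clusters was 21 to 37.5 with 1 replicate left out. The cause of these changes was not tested, including the smaller number of clusters or replicates in some alternatives. No paired analysis was possible because the 3 replicates form a single group. Clusters per kb of coding length were not run. Replicate 3, with 33 distinct reads on DICER1, limits every statement on sites shared by all 3 replicates.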
